A study of Homo sapiens with 10 samples.

Results

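Tetraspanins are small proteins that cross the membrane several times and hold other membrane proteins, among them integrins, proteases and immune receptors, in shared patches of the cell surface and of endosomes. The 10 human tetraspanin genes described here, CD9, CD37, CD53, CD63, CD81, CD82, CD151, TSPAN4, TSPAN14 and TSPAN33, were chosen by name around CD9 among the 36591 human genes of the count table, and the human family holds 33 genes. CD9 itself was chosen because of its difference between the hosts compared here. Its values in that comparison are therefore a description and carry no test, and the values of the other 9 genes are given in the same way. Each of the 10 genes passed the filter on low counts (10 counts or more, reached by no fewer than 6 of 10 libraries), as did 15455 human genes in all.

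The cells were microglia derived from H9, a human embryonic stem cell line, so that both groups hold cells of 1 line (hMG). Precursors were grafted into mouse pups on postnatal day 4, after the endogenous microglia had been depleted with the CSF1R inhibitor BLZ945, and were recovered at 6 months of age. All hosts lacked Rag2, which removes mature T and B cells, and carried human CSF1 in place of the mouse gene (Rag2KO-hCSF1KI), on which human microglia depend. The control hosts, AppHu (AppKI in the labels), carried an App gene with a humanized amyloid-β sequence and no disease mutation. AppSAA hosts carried the same humanized sequence with the Swedish, Arctic and Austrian mutations of familial Alzheimer's disease, which are known to cause amyloid plaques. Human cells were sorted as CD11b positive and human CD45 positive, and bulk RNA was sequenced from 5 AppHu and 5 AppSAA samples. Mouse microglia were reduced but not absent from these brains, and every library also held reads assigned to mouse genes. Total counts were 29414003 to 39641854 in AppHu and 25040739 to 31615544 in AppSAA, and 3.12 to 4.97% and 2.12 to 3.85% of these were mouse counts. The sorted cells expressed the microglial genes, since all 15 microglial markers examined passed the filter and CX3CR1, the fractalkine receptor, lay between 8492 and 9656 CPM (counts scaled to 1000000 counts per library) in AppHu and between 7349 and 9022 CPM in AppSAA.

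In each tetraspanin the larger extracellular loop carries a Cys-Cys-Gly signature, whose cysteines form the disulfide bonds that fold the loop through which most partners are bound. In the coding sequence this reads as the codon TGC or TGT, again TGC or TGT, and then GGN. Read in frame, these codons were present in the MANE Select coding sequence of 33 of 33 family genes, against 2.75% of all 19028 coding sequences examined. The 30 bases around the signature are shown for the 10 genes because they are what the members have in common and show which row of the table each name stands for. They are on the coding strand, 5′ to 3′, from GENCODE 44 transcripts on GRCh38, and capitals mark the 3 codons.
CD9: tatgcgttgaacTGCTGTGGTttggctggg
CD37: ttccagctgcgcTGCTGCGGCtggcactac
CD53: tcatttctgcagTGTTGTGGTataaatggc
CD63: gcagattttaagTGCTGTGGGgctgctaac
CD81: gagacgcttgacTGCTGTGGCtccagcaca
CD82: gctcaggtgaagTGCTGCGGCtgggtcagc
CD151: caggagttccacTGCTGTGGCagcaacaac
TSPAN4: accgacttccgcTGCTGTGGCgtctccaac
TSPAN14: aaagctaaccagTGCTGTGGCgcatatggc
TSPAN33: aaaaagtttagcTGCTGTGGAgggatttcc

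The first cysteine of the signature was codon 144 to 156 in all 10 genes, and in each gene the 30 bases crossed 1 exon junction. CD9 lies on the plus strand of chr12:6199715-6238271, and its MANE Select transcript has 8 exons and encodes 228 residues. Its signature starts at codon 152, and the bases shown run from exon 5 to the next one, within chr12:6235322-6235499. CD63 lies on the minus strand of the same chromosome at chr12:55725323-55729707, CD53 at chr1:110871188-110899922 and CD37 at chr19:49335171-49343335. CD81 (chr11:2376177-2397802), CD82 (chr11:44564427-44620358), CD151 (chr11:832887-839831) and TSPAN4 (chr11:842812-867116) share chromosome 11, and CD151 and TSPAN4 are neighbours there. TSPAN14 is at chr10:80454265-80533124 and TSPAN33 at chr7:129144707-129169699. A second run of the same codons occurs in CD9 at codon 78, in CD63 at codon 72 and in CD81 at codon 227.

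CD9 binds integrins, immunoglobulin-like EWI proteins and membrane-bound growth factors, and is counted among the genes that microglia raise near amyloid plaques. Human CD9 had 208, 564, 418, 134 and 177 counts in AppHu replicates 3, 4, 6, 7 and 8. In AppSAA replicates 4, 5, 6, 7 and 8 it had 1124, 1611, 763, 834 and 1428 counts. The groups did not overlap, and the highest AppHu library, replicate 4, stayed below the lowest AppSAA library, replicate 6. Scaled to library size, CD9 stood at 7.49, 14.6, 11.7, 4.04 and 6.01 CPM in AppHu (8.78 ± 4.33, mean ± SD, n = 5). In AppSAA it stood at 38.7, 61.2, 32.0, 27.4 and 46.4 CPM (41.1 ± 13.3, n = 5). The fitted difference was 2.22 on the log2 scale (SE 0.322, 95% interval 1.52 to 2.92), or 4.66-fold (2.87 to 7.57). Leaving out 1 library at a time gave 2.03 to 2.49. In bulk RNA, a change in the number of cells that express a gene cannot be told apart from a change in the RNA of each cell.

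A gene was called where its adjusted p, from the quasi-likelihood test of edgeR with Benjamini-Hochberg adjustment over the 15455 genes, was under 0.05. Of the 10 tetraspanins 1 was called, CD9, where the test called 12 of 15455 human genes, or 0.0776%. With DESeq2 the count was again 1 of 10, beside 1.51% of the 14251 genes that received an adjusted p. The CPM ranges of the groups were separate for 1 of the 10 genes and for 2.49% of all 15455. By signed log2 difference, from the most positive downwards, CD9 ranked 3 of 15455 genes. Because it was chosen for this difference nothing is read from these counts. The edgeR call was lost, with 0 of the 10 genes called, when AppHu replicate 3, 7 or 8 or AppSAA replicate 6 or 8 was left out, where the log2 difference of CD9 was 2.17, 2.04, 2.11, 2.30 and 2.17. It was also lost with the log2 library total as a covariate, at 2.65 (1.70 to 3.59). For the human genes this library total was the total of human counts alone. With the mouse share as a covariate the call was lost as well, at 2.23 (1.37 to 3.09).

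**Figure D1:**
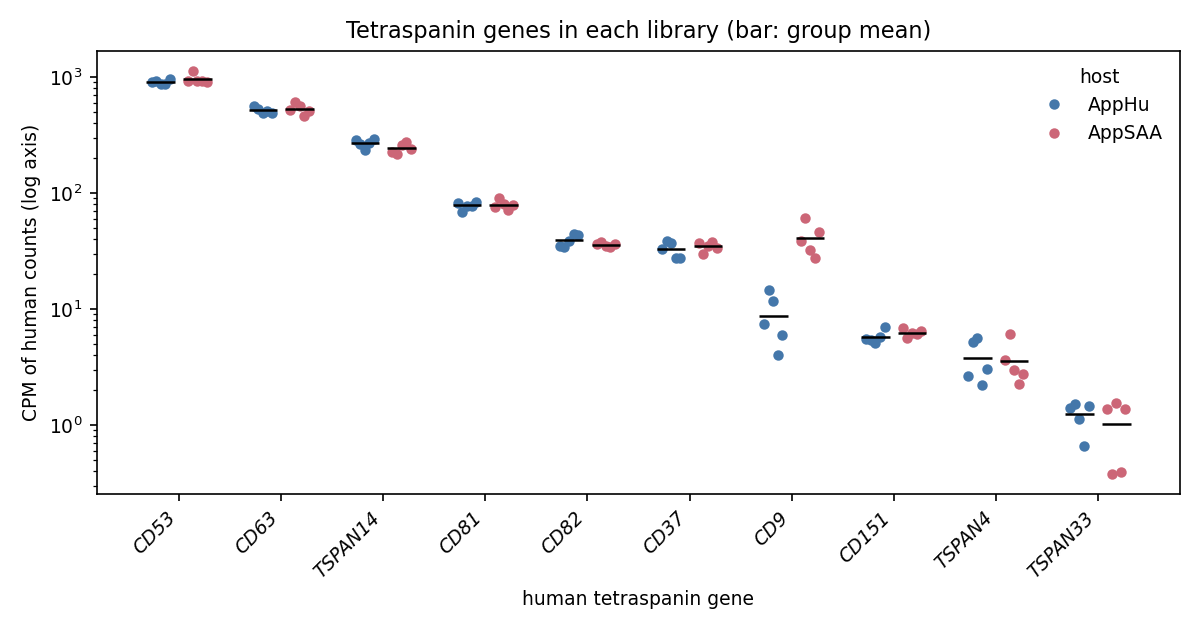
CPM of the 10 human tetraspanin genes on a log axis, 1 point per library (5 AppHu in blue, 5 AppSAA in red) with a bar at each group mean. CD9 is the 1 gene whose groups are separate, at 4.04 to 14.6 CPM in AppHu and 27.4 to 61.2 CPM in AppSAA, and the points of the other 9 genes overlap.

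CD53 and CD37 are tetraspanins of leukocytes, and CD53 was the most abundant of the 10. CD53 had 906, 922, 877, 869 and 967 CPM in AppHu replicates 3, 4, 6, 7 and 8, and 927, 1128, 916, 929 and 910 CPM in AppSAA replicates 4 to 8. The groups overlapped and AppSAA replicate 5 stood above the rest. The log2 difference was 0.083 (SE 0.0658, 95% interval -0.060 to 0.23), and 0.015 without AppSAA replicate 5. CD37, which associates with the β-glucan receptor Dectin-1 (CLEC7A) and is otherwise best known from B cells, lay at 27.3 to 38.2 CPM in AppHu and 29.8 to 37.4 CPM in AppSAA. Its log2 difference was 0.084 (-0.16 to 0.32).

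CD63 and CD82 are found in late endosomes and lysosomes, and CD63 and CD81 are used together with CD9 as surface markers of exosomes. CD63 had 565, 526, 491, 510 and 492 CPM in AppHu and 522, 607, 556, 458 and 509 CPM in AppSAA, so that the AppSAA libraries held both the highest and the lowest value. Its log2 difference was 0.037 (SE 0.0742, -0.12 to 0.20). For CD81 the ranges were 69.2 to 84.1 CPM in AppHu and 71.2 to 90.6 CPM in AppSAA, and the log2 difference was 0.026 (-0.14 to 0.19). The sign of both turned with the library total as a covariate (CD81 -0.10, CD63 -0.064) and without AppSAA replicate 5 (CD81 -0.030, CD63 -0.021), and that of CD81 also without AppHu replicate 4 (-0.014) and with the replicate number as a block (-0.0050). CD82 lay at 34.5 to 44.5 CPM in AppHu and 34.3 to 38.2 CPM in AppSAA, with a log2 difference of -0.12 (-0.31 to 0.060). The intervals of these 3 genes reached 0.20 at most and lay below that of CD9, which began at 1.52. CD9 was chosen for its difference, so nothing further is read from this contrast.

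CD151 binds the integrins that hold cells to laminin, and TSPAN4 is known from migrasomes, the membrane bodies that migrating cells leave behind. CD151 was low, at 5.05 to 6.93 CPM in AppHu and 5.59 to 6.79 CPM in AppSAA, with a log2 difference of 0.11 (-0.16 to 0.39). It shares 257 exonic bases with POLR2L on the opposite strand, a gene with 249 to 523 counts per library, and the strand setting of the counting is not given in the sources used here, so that its level is uncertain. TSPAN4 had 2.66, 5.19, 5.64, 2.20 and 3.06 CPM in AppHu and 3.65, 6.12, 2.98, 2.26 and 2.76 CPM in AppSAA. The spread among replicates was wide in both groups, and the log2 difference of -0.086 (SE 0.320, -0.78 to 0.61) turned positive without AppHu replicate 4 or 6 or AppSAA replicate 7, at 0.061, 0.11 and 0.041, and with the library total as a covariate, at 0.18.

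TSPAN14 and TSPAN33 belong to the TspanC8 tetraspanins, which escort the protease ADAM10 to the cell surface. TSPAN14 had 286, 263, 236, 271 and 294 CPM in AppHu and 225, 216, 258, 273 and 241 CPM in AppSAA. The groups overlapped, and the log2 difference was -0.15 (SE 0.0789, -0.33 to 0.017). TSPAN33 rested on 22 to 59 counts in AppHu and 10 to 42 counts in AppSAA, and its log2 difference of -0.29 had an interval of -1.19 to 0.62. Its replicates were widely spread (pooled within-group SD 0.75 on the log2 scale), and the difference was -0.080 without AppSAA replicate 7, -0.087 without AppSAA replicate 5, -0.49 without AppSAA replicate 6 and -0.11 with the mouse share as a covariate. Over the 9 genes other than CD9 the median log2 difference was 0.026, with 5 above 0 and 4 below, beside 0.0018 over all 15455 genes. It lay between -0.030 and 0.055 when single libraries were left out.

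**Figure D2:**
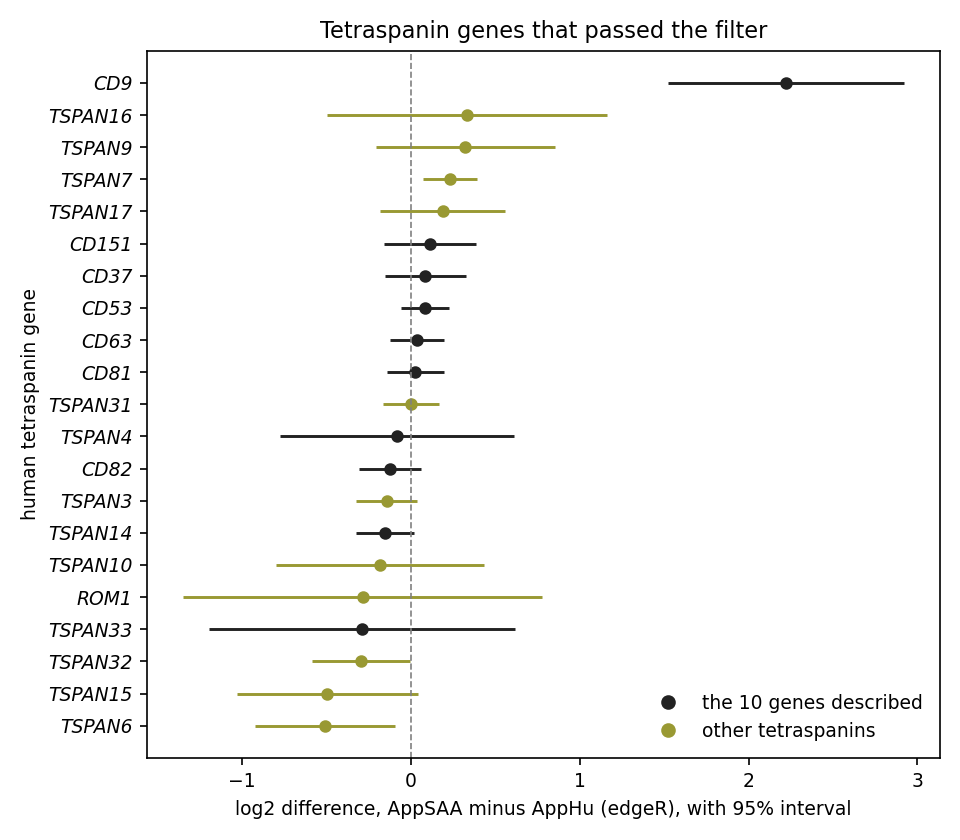
Log2 difference between AppSAA and AppHu (positive: higher in AppSAA) with its 95% interval for the 21 human tetraspanin genes that passed the filter, the 10 genes described in black and the other 11 in olive. The interval of CD9 runs from 1.52 to 2.92, and the point estimates of the other 20 genes lie between -0.51 and 0.33.

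The other 23 genes of the family were examined with the same fit. Of these 11 passed the filter. EdgeR called 0 of the 11, beside 0.0776% of all genes, and DESeq2 0, beside 1.51%, with no adjusted p for TSPAN16. Of the 11 genes 4 lay above 0 and 7 below, with a median log2 difference of -0.14 (-0.17 to -0.024 when single libraries were left out). With unadjusted p under 0.05, 1 was higher and 2 were lower, beside 9.8% of all genes tested. The higher one was TSPAN7, a tetraspanin known from neurons and their glutamate receptors, which had 40.3, 43.1, 46.0, 37.4 and 46.4 CPM in AppHu and 51.0, 47.8, 52.1, 48.6 and 50.8 CPM in AppSAA. Its groups did not overlap, but the log2 difference of 0.23 (SE 0.0737) did not pass the test (edgeR quasi-likelihood test, adjusted p = 0.284). TSPAN6 lay at 6.07 to 12.9 CPM in AppHu and 5.31 to 7.51 CPM in AppSAA (log2 difference -0.51, SE 0.192, edgeR adjusted p = 0.385). TSPAN32, a tetraspanin of blood cells, differed by -0.30 on the log2 scale (SE 0.133, edgeR adjusted p = 0.491).

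Among the TspanC8 genes outside the 10, TSPAN15, TSPAN17 and TSPAN10 passed the filter and TSPAN5 did not. TSPAN15 had 27.9, 24.4, 18.3, 21.0 and 27.2 CPM in AppHu and 16.2, 6.84, 22.8, 19.1 and 19.2 CPM in AppSAA, where replicate 5 was the lowest of the 10 libraries. The log2 difference of -0.50 (SE 0.247, edgeR adjusted p = 0.555) was -0.30 without that library. TSPAN17 differed by 0.19 and TSPAN10 by -0.18 on the log2 scale, with edgeR adjusted p of 0.798 and 0.898. The remaining family genes that passed were TSPAN3 (log2 difference -0.14, adjusted p = 0.632), TSPAN9 (0.32, adjusted p = 0.747), TSPAN16 (0.33, adjusted p = 0.849), ROM1 (-0.29, adjusted p = 0.909) and TSPAN31 (-0.00013, adjusted p = 0.999) in the same edgeR test. ROM1, a protein of photoreceptor discs, and TSPAN16 were near the filter, at 8 to 43 and 5 to 33 counts. TSPAN2, TSPAN8, TSPAN12 and TSPAN19 were listed at 0 in all 10 libraries.

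To compare the genes with each other, counts were scaled to the length of the merged exons of GENCODE 44 and to depth (TPM, the length-scaled form of CPM), for the 82.98% of tested genes, all 10 tetraspanins among them, that had a length. In AppHu the mean levels were 1905 TPM for CD53 and 963 TPM for CD63, and these 2 were apart from all others. TSPAN14 followed at 68.5 TPM, CD81 at 44.1, CD82 at 43.8 and CD37 at 35.4 TPM. CD9 came seventh in AppHu at 6.81 ± 3.41 TPM (SD, n = 5), next to CD151 at 6.66 ± 0.783 TPM, and lastly TSPAN4 at 2.91 and TSPAN33 at 1.58 TPM. Neighbours whose libraries overlapped in AppHu were CD81 and CD82, CD82 and CD37, CD9 and CD151, and TSPAN4 and TSPAN33. In AppSAA CD9 was at 31.9 ± 9.90 TPM, still in rank 7, behind CD37 at 37.8 and ahead of CD151 at 7.25 TPM. CD9 thereby made up 0.167, 0.331, 0.279, 0.0956 and 0.133% of the summed TPM of the family in the AppHu replicates, and 0.879, 1.18, 0.707, 0.636 and 1.06% in the AppSAA replicates, so that it remained a minor tetraspanin transcript in each library. The order depended on the length used. With the longest transcript CD9 stood at 8.69 TPM in AppHu and 40.7 TPM in AppSAA, ranks 8 and 6. In a further scaling only the 10 genes took their MANE Select length, and all other genes kept the longest transcript. There CD9 stood at 23.7 and 111 TPM, ranks 7 and 5. Because the lengths were mixed, only the order of the 10 genes is read from that scaling.

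Reads of mouse Cd9 were examined as a possible source of human CD9 counts, since host RNA was present in each library. Mouse Cd9 had 960, 1135, 1560, 844 and 1147 counts in AppHu and 733, 1042, 747, 679 and 937 counts in AppSAA. Scaled to the mouse totals, mouse Cd9 lay at 749 to 1026 CPM in AppHu and 770 to 1303 CPM in AppSAA. It made up 66.8 to 86.6% of the counts of both genes in AppHu and 39.3 to 49.5% in AppSAA. Whether any human CD9 counts came from mouse RNA was not tested. Among the mouse genes, tested on their own totals, Cd9 differed by 0.15 on the log2 scale (SE 0.207, 95% interval -0.29 to 0.59, edgeR quasi-likelihood test, adjusted p = 0.872). This difference was -0.14 with the log2 total of mouse counts and -0.0017 with the mouse share as a covariate. The fewest human counts per mouse count, 15.4%, were in AppHu replicate 8. At that ratio mouse Cd9 would account for 105 to 161 human CD9 counts in AppSAA, which is 9.98 to 15.1% of the CD9 counts there. Taking off that many counts in each library left 23.9 to 55.1 CPM of CD9 in AppSAA, and no more than 10.1 CPM in AppHu. That ratio came from the CD9 counts themselves and was applied alike to all libraries. The remainder is therefore arithmetic and no test of a mouse source.

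**Figure D3:**
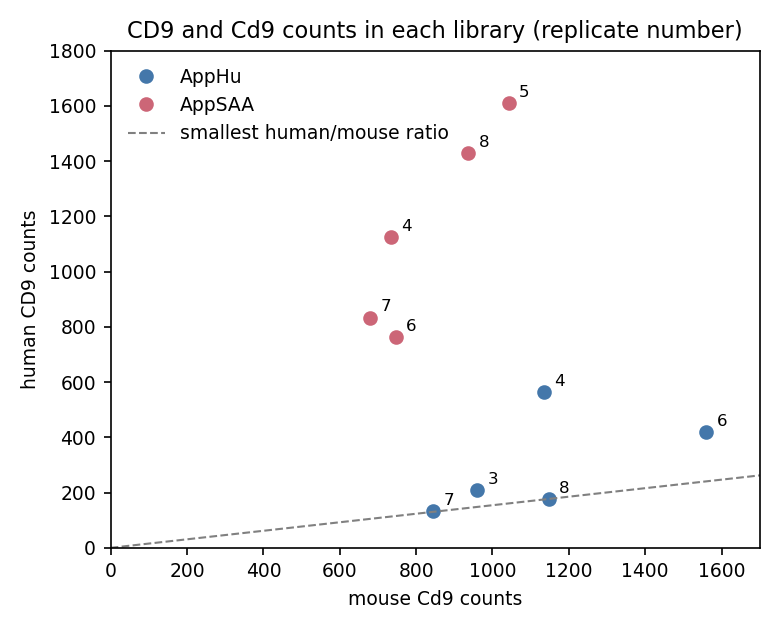
Human CD9 counts against mouse Cd9 counts, 1 point per library with its replicate number (AppHu blue, AppSAA red). The dashed line marks the smallest ratio of human to mouse counts, 15.4% in AppHu replicate 8, so that no library can lie below it. The 5 AppSAA libraries lie at 679 to 1042 mouse counts and 763 to 1611 human counts.

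Human counts of neural markers, genes listed for cell types that were not grafted, were mixed. Human MOG, MOBP and AQP4, which mark oligodendrocytes and astrocytes, were at 0 counts in each library beside 358 to 2479, 1163 to 5173 and 231 to 1764 mouse counts. Human MAG, GFAP, SNAP25 and SOX10 had at most 1, 5, 6 and 5 counts. MBP, a myelin gene, had 966 to 2356 human counts beside 2758 to 14100 mouse counts, and the neuronal genes RBFOX3 and SYT1 had 13 to 69 and 0 to 27 human counts beside 0 to 4 and 0 to 58 mouse counts. SLC1A3, a glutamate transporter gene, had 11040 to 16998 human counts beside 869 to 7873 mouse counts. Human counts of SLC1A3 and RBFOX3 were thus above the mouse counts in each library, and neither is read as a marker of host cells. Whether any of these human counts came from mouse RNA was not tested. How many bases human CD9 and mouse Cd9 have in common along their transcripts was not examined here, so that none of these ratios need hold for CD9. Cd9 and Tspan2 are also tetraspanins of oligodendrocytes, and mouse oligodendrocyte markers summed to 42062 to 92239 CPM of mouse counts in AppHu and 17710 to 54237 CPM in AppSAA, with 9 of 9 markers below 0 (median log2 difference -0.82) and 0 called. Mouse Tspan2 followed the same direction (-0.83, SE 0.315, edgeR adjusted p = 0.456).

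Of the mouse orthologues of the 10 genes 9 passed the filter and 0 were called by edgeR, which called 0.0% of 9376 mouse genes. DESeq2 called 0 of the 5 orthologues to which it gave an adjusted p (Cd37, Cd151, Tspan4 and Tspan14 received none), beside 1.84% of the 651 mouse genes to which it gave an adjusted p, and 2 were higher at an unadjusted p under 0.05, beside 9.36% of mouse genes. These were the leukocyte tetraspanins Cd37 and Cd53. Cd53 had 84.6 to 243 CPM of mouse counts in AppHu and 188 to 455 CPM in AppSAA (log2 difference 0.95, SE 0.324, edgeR adjusted p = 0.456), and Cd37 differed by 1.15 (SE 0.366, edgeR adjusted p = 0.456). The mouse microglial markers moved with them, with 10 of 10 above 0 (median log2 difference 0.64) and summed levels of 4497 to 9140 CPM in AppHu and 6499 to 14675 CPM in AppSAA, and their part in these differences was not tested. Cd63, Cd81 and Cd82 differed by 0.33, 0.16 and -0.42 on the log2 scale, Cd151 by 0.84, and Tspan4 and Tspan14 by -0.047 and -0.067. Mouse counts were a large share beside human ones for CD81 as well, at 102 to 170% of the human counts in AppHu and 72.1 to 145% in AppSAA. Mouse counts of CD82 were 28.36 to 59.97% of the human ones in AppHu and 19.52 to 46.98% in AppSAA. Those of TSPAN4 were 24.5 to 40.5% in AppHu and 15.1 to 46.4% in AppSAA. They were at most 36.4% for TSPAN33, 29.9% for CD151 and 11.96% for CD37. For CD53 they were at most 1.26%, for CD63 at most 7.13% and for TSPAN14 at most 4.46%. Whether human counts of these genes, TSPAN4 among them, came from mouse RNA was not tested.

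Human CD9 is also abundant in platelets, megakaryocytes, mast cells and basophils, and the human rows were searched for their markers. PF4 and PPBP, the defining platelet chemokines, were listed at 0 in all 10 libraries, and the 8 platelet and megakaryocyte markers together reached 3.20 to 5.23 CPM in AppHu and 1.71 to 5.22 CPM in AppSAA. The 7 mast cell and basophil markers summed to at most 0.0360 CPM in AppHu and 0.0760 CPM in AppSAA, with 0 of 7 past the filter. Markers of monocytes summed to 145 to 206 CPM in AppHu and 134 to 185 CPM in AppSAA, mostly CD14, and S100A12 and FCN1 were listed at 0. S100A8 rested on 5 to 27 counts in AppHu and 17 to 456 in AppSAA, with a log2 difference of 2.72 (SE 0.902, edgeR adjusted p = 0.308) that was 0.64 without AppSAA replicate 4, and S100A9 had 9 to 16 and 5 to 173 counts. The 11 markers of CNS-associated macrophages summed to 4730 to 5406 CPM in AppHu and 3977 to 5004 CPM in AppSAA. Of these 10 of 11 lay below 0, with a median log2 difference of -0.48. EdgeR called 0 of them, beside 0.0776% of all genes. DESeq2 called MRC1 and MS4A4A lower, beside 1.51% of all genes, and gave SIGLEC1 and CLEC10A no adjusted p. The microglial markers summed to 47482 to 53946 CPM in AppHu and 41413 to 52059 CPM in AppSAA, with 14 of 15 below 0 and 0 called. Human counts of 12 neural markers summed to 398 to 501 CPM in AppHu and 599 to 616 CPM in AppSAA, mostly SLC1A3, whose groups did not overlap (log2 difference 0.45, adjusted p = 0.0548 in edgeR and 0.00018 in DESeq2). The part of these markers in the CD9 difference was not tested.

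The proteins that tetraspanins gather at the membrane were examined as a list of 28 partner genes, of which 23 passed the filter. EdgeR called 0 of the 23, beside 0.0776% of all genes. At an unadjusted p under 0.05, 3 were higher and 4 lower, beside 9.8% of all genes, and the median log2 difference was -0.026. DESeq2 called 1, CD44, beside 1.51% of all genes. CD44, the hyaluronan receptor, had 2.41 to 5.98 CPM in AppHu (3.93 ± 1.38, n = 5) and 6.34 to 19.0 CPM in AppSAA (13.1 ± 4.85, n = 5). The groups did not overlap, and the log2 difference was 1.73 (SE 0.296, adjusted p = 0.0548 in the edgeR quasi-likelihood test and 3.2e-06 in DESeq2). It passed in edgeR without AppSAA replicate 4 or 5, at 1.91 (adjusted p = 0.0267) and 1.75 (adjusted p = 0.0495). HBEGF, a growth factor whose membrane form binds CD9, lay at 2.60 to 4.96 CPM in AppHu and 2.85 to 9.13 CPM in AppSAA (0.79, SE 0.274, edgeR adjusted p = 0.328). IFITM1, an interferon-induced protein that associates with CD81, differed by 1.31 (SE 0.586, edgeR adjusted p = 0.491), with AppSAA libraries from 0.503 to 7.27 CPM, and by 0.24 without AppSAA replicate 4. Lower by point estimate were ITGA5, the α chain of the fibronectin receptor (-0.46, edgeR adjusted p = 0.321), PTGFRN, an EWI protein and direct partner of CD9 (-0.70, edgeR adjusted p = 0.355), and the scavenger receptor CD36 (-0.60, edgeR adjusted p = 0.431).

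ADAM10, its TspanC8 escorts outside the 10 genes and the proteins that ADAM10 and related proteases cut made up a list of 23, of which 20 passed the filter. EdgeR called 0, beside 0.0776% of all genes. At an unadjusted p under 0.05, 2 were higher and 4 lower, beside 9.8% of all genes, and the median log2 difference was -0.13. DESeq2 called 2, CD44 again and RHBDF2, beside 1.51% of all genes, and gave NECTIN1 no adjusted p. RHBDF2, which carries the related protease ADAM17 to the surface, lay at 155 to 201 CPM in AppHu and 201 to 242 CPM in AppSAA without overlap (log2 difference 0.32, SE 0.0784, adjusted p = 0.157 in edgeR and 0.0330 in DESeq2). NOTCH2, APP and AXL, which are cut by ADAM10, differed by -0.39, -0.77 and -0.21 on the log2 scale, with edgeR adjusted p of 0.349, 0.386 and 0.388.

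Of 46 genes of multivesicular bodies, late endosomes and exosome formation 43 passed the filter. EdgeR called 0 of the 43, beside 0.0776% of all genes, and DESeq2 0, beside 1.51%, with no adjusted p for SDC4. At an unadjusted p under 0.05, 1 was higher and 0 were lower, beside 9.8% of all genes. The median log2 difference was -0.019 and the range -0.78 to 0.60. VPS37A, a subunit of ESCRT-I, had 51.3 to 60.0 CPM in AppHu and 58.7 to 65.6 CPM in AppSAA (0.15, edgeR adjusted p = 0.437). RAB27A, which docks multivesicular bodies at the plasma membrane, differed by 0.60 (edgeR adjusted p = 0.588) and CHMP4A by 0.10 (edgeR adjusted p = 0.618). SDC2, AP3S2 and HGS lay lower, by -0.78, -0.17 and -0.13 on the log2 scale, with edgeR adjusted p of 0.538, 0.552 and 0.560.

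**Figure D4:**
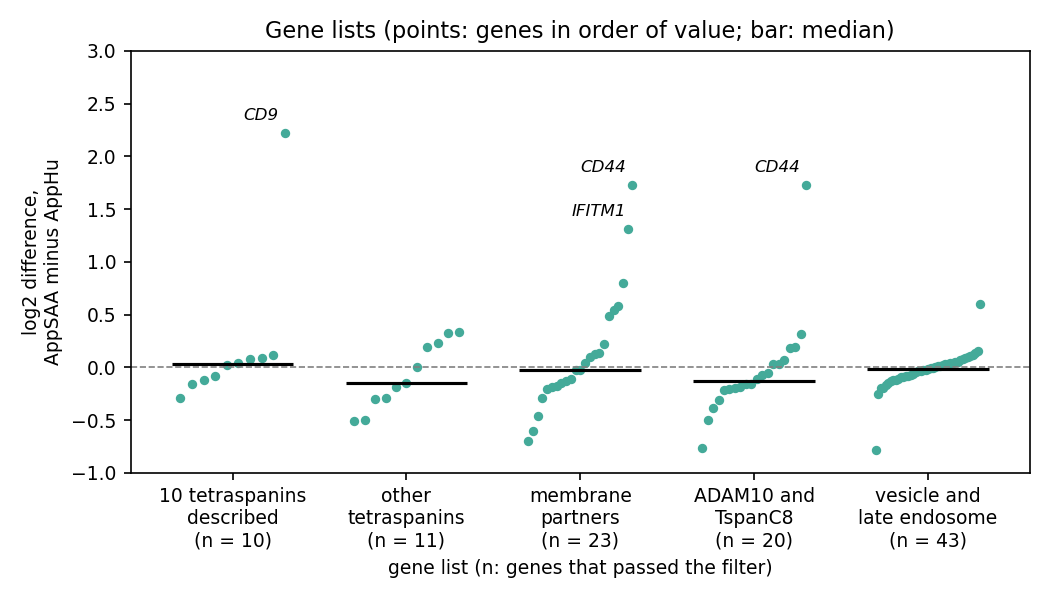
Log2 difference between AppSAA and AppHu for each gene that passed the filter in 5 lists, 1 point per gene in order of value and a bar at the median. The medians lie between -0.14 and 0.032, and the points above 1 are CD9 at 2.22, CD44 at 1.73 (a member of 2 lists) and IFITM1 at 1.31, which was 0.24 without AppSAA replicate 4.

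Variation among libraries of the same group was not used in choosing the genes. With the group means taken off, log2 CPM of CD9 and TSPAN4 went together over the 10 libraries (Pearson r = 0.88, exact permutation p = 0.00347; Spearman rho = 0.75, p = 0.0336). Adjusted over the 45 pairs of the 10 genes these p-values were 0.156 and 0.378, so that the relation did not pass. The exact test was two-sided and permuted libraries within groups over 14400 arrangements. Each rho was computed from ranks taken within each group of 5 and then pooled over the 10 libraries. The r was 0.93 within AppHu and 0.84 within AppSAA, each over 5 libraries. It was 0.85 without AppHu replicates 4 and 7, which were farthest from the median of CD9. AppHu replicates 4 and 6 and AppSAA replicate 5 were high in both genes, and replicate 7 was the lowest of its group in both. CD9 and TSPAN14 varied in opposite directions (r = -0.67, exact permutation p = 0.0424, adjusted p = 0.382; rho = -0.75, p = 0.0336, adjusted p = 0.378), and r was -0.92 without the same 2 libraries. TSPAN4 and TSPAN14 gave r = -0.81 (exact permutation p = 0.00792, adjusted p = 0.178, with rho = -0.75, p = 0.0336, adjusted p = 0.378). Their r was -0.56 without AppHu replicate 6 and AppSAA replicate 5. Pairs without CD9 were as strong, among them CD37 and CD82 (r = -0.81, exact permutation p = 0.0344, adjusted p = 0.382, with rho = -0.80, p = 0.0192) and CD37 and CD81 (r = -0.71, exact permutation p = 0.0187, adjusted p = 0.280). The r of CD9 with CD37 was 0.95 in AppHu and -0.89 in AppSAA, and with CD82 -0.77 and 0.95. No pair of the 45 passed after adjustment.

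**Figure D5:**
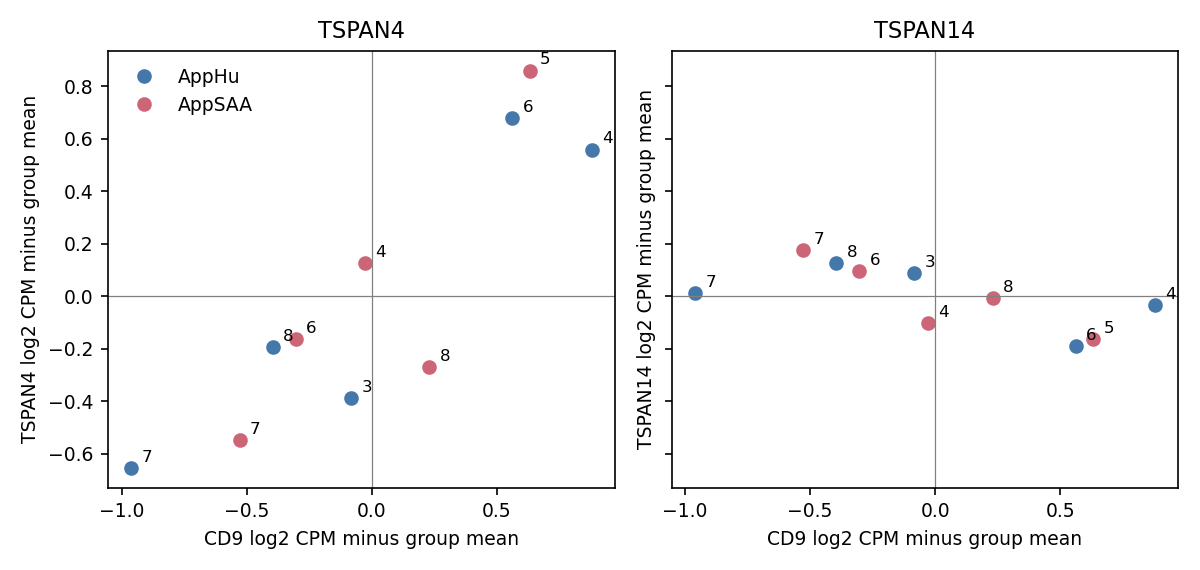
Log2 CPM of TSPAN4 (left) and TSPAN14 (right) against CD9, each minus its group mean, 1 point per library with its replicate number (AppHu blue, AppSAA red). TSPAN4 goes up with CD9 (r = 0.88) from AppHu replicate 7 to AppHu replicate 4, and TSPAN14 goes down (r = -0.67) over a narrower range.

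Among all 15455 genes those whose deviations were most like those of CD9 over the 10 libraries were MGLL (r = 0.96), KCNJ5 (0.94), BAG6 (0.93), CYP1B1-AS1 (0.92) and TNPO3 (0.92), and TSPAN4 ranked 24. MGLL, which encodes monoacylglycerol lipase, had means of 8.01 CPM in AppHu and 10.7 CPM in AppSAA (log2 difference 0.42, edgeR adjusted p = 0.308), so that the gene closest to CD9 within groups did not pass between them. For CD53, the most abundant member, the closest genes were TREM2 (r = 0.97), PSMA6 (0.96), NDUFB11 (0.96), ERP29 (0.95) and HSPA9 (0.95). TREM2, a lipid receptor of microglia, had means of 642 and 671 CPM, and its r with CD53 was 0.77 without the 2 libraries farthest from the median of CD53. These are descriptions over 10 libraries that share preparation and depth.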

How the data were processed

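Full-length cDNA of the sorted cells was prepared by the authors with the SMART-Seq HT PLUS kit and read from 1 end. Per the labels, reads were aligned with STAR 2.7.11a to mm10 and GRCh38 joined into 1 reference, and featureCounts 2.0.1 gave counts for each gene. These raw counts were deposited as they were, neither normalized nor filtered. The annotation release, the strand setting and the handling of reads that fit several places are not given in the sources used here. Groups follow the genotype in the labels. Per the study's methods the libraries are of separate mice of both sexes, in unequal numbers per group, and the sex of each library was not used here. No 2 libraries of a group were alike within sampling noise (chi-square per degree of freedom 11.2 to 71.4 over 20 pairs).

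Human and mouse rows were fitted apart in R 4.3.3 with edgeR 4.0.16 (TMM, quasi-likelihood, a minimum of 10 counts in 6 or more of the 10 libraries, Benjamini-Hochberg, threshold 0.05). The study's own tool, DESeq2, was run in version 1.42.0 and limma-voom in 3.58.1 as alternatives, beside other scalings, filters, covariates and single libraries left out. The fit was checked on simulated counts. CPM were scaled by TMM, with a prior count of 2 for log2 values. Named genes were the 10 members, all tested tetraspanins, in each list the 3 smallest p in each direction, the mouse orthologues, overlapping genes, the 5 genes most like CD9 and CD53, and markers. The members and gene lists were chosen with earlier results of these data known. Correlations used Python 3.11.15 and scipy 1.17.1. Positions and sequences are from GENCODE 44, matched by symbol.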

Additional observations from a re-analysis of the deposited data

Results flagged for a closer look

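Each group of 5 libraries of the 10 human genes and of the 9 mouse orthologues that passed the filter, 38 groups in all, was searched for a library far from the others, which chance gives in about 1 of 20 groups. One was found. CD53 in AppSAA replicate 5 stood at 1128 CPM where the other AppSAA libraries lay at 910 to 929 CPM, and its gap to the nearest took up 0.905 of the range of the group on the log2 scale (critical value 0.71). The other 9 genes were also at an end of the AppSAA range in this library. The share of all genes at an end there was not counted, so that this is not read as particular to tetraspanins. CD9, CD63, CD81, CD82 and TSPAN4 were the highest of the 5, at 61.2, 607, 90.6, 38.2 and 6.12 CPM, and CD37, CD151, TSPAN14 and TSPAN33 the lowest, at 29.8, 5.59, 216 and 0.380 CPM. The cause was not tested.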

How the results depend on the processing

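The log2 difference of CD9 lay between 2.03 and 2.65 under the 19 alternatives, and single libraries left out gave 2.03 to 2.49. The count of the 10 tetraspanins called was 0 in place of 1 with the library total or the mouse share as a covariate, and 0 to 1 without single libraries. Other tetraspanins, vesicle genes and mouse tetraspanins had 0 calls in all 19. Partner genes called were 1 in place of 0 with DESeq2, limma-voom, the mouse share, no filter and upper-quartile factors (CD44 in each), and 0 to 1 without single libraries. ADAM10 list genes called were 2 with DESeq2, 1 with limma-voom, the mouse share, no filter and upper-quartile factors, and 0 to 1 without single libraries. Genes called in all were 215 with DESeq2 and 12 with edgeR, 1 with the library total, 5 with the mouse share, 52 with limma-voom, 32 with no filter, and 2 to 34 without single libraries. Mouse Cd9 turned to -0.14 with the log2 total of mouse counts and -0.0017 with the mouse share, and was not called in any. The level of CD9 in AppHu was 23.7 TPM in place of 6.81 with the MANE Select length, an alternative chosen after seeing the data. TSPAN14 and CD81 moved likewise, to 161 and 174 TPM. This length was used for the 10 genes alone and the longest transcript for all others, so these TPM are on a mixed scale. Why covariates changed calls was not tested. TSPAN33 rested on the fewest counts of the 10 genes, 10 to 59, with a pooled within-group SD of 0.75 (log2).

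Replicate numbers 4, 6, 7 and 8 occur in both groups. Deviations of same-numbered libraries correlated at 0.061, 0.032, 0.18 and 0.11, not each above the minimum of 0.1 set for pairing, and the labels name no shared litter or day, so the numbers were not taken as pairs. As a hint from the data, 3 of 4 AppHu libraries were closest to their own number. With the replicate number as a block, CD9 differed by 2.10 (1.55 to 2.65), 1 of the 10 genes was called, and 59 genes in all. Partner genes called were 1 with this block, HBEGF (1.06, edgeR adjusted p = 0.0345), and ADAM10 list genes 0.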
